A study of Mus musculus with 9 samples.

Results

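Transcripts of 9 complement genes were followed in RNA of mouse spinal cord motoneurons: the C1q chain genes C1qa, C1qb and C1qc, the protease gene C1ra, the component genes C4b and C3, the anaphylatoxin receptor genes C3ar1 and C5ar1, and the inhibitor gene Serping1. The genes were chosen by symbol in the deposited table, which held 1 row for each of them among 55401 genes. All mice were labelled wild type (WT), and the labels gave no age or sex. Smart-seq2, which amplifies full-length cDNA from little RNA, was run on neurons that carried a fluorescent label named TRDA and were drawn into glass electrodes from fresh cord slices. There were 3 libraries in each of 3 groups: sham animals with the treatment label None, untrained animals with spinal cord injury (SCI), and SBES animals, which had SCI followed by synergistic bidirectional electrical stimulation. Tissue was taken 4 weeks after injury, and SBES libraries 1, 2 and 3 were stimulated at 10, 15 and 20 Hz, so a difference between SBES libraries cannot be told apart from one of frequency. The titles call the libraries single-cell, and the number of neurons in a library was not stated. The labels named 3 mice per group without linking a library to a mouse, so the p-values rest on library-to-library spread, which may be partly technical. The 3 untrained libraries and SBES 1 were matched to their table columns by elimination, and their values rest on that match.

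Complement is a cascade of blood and tissue proteins that tags cells, debris and, in the developing and injured nervous system, synapses for removal by phagocytes. C1q binds a target and activates the proteases C1r and C1s, which cut C4 and C2; the resulting enzyme cuts C3, the step at which all routes of activation meet. Small fragments released from C3 and C5 signal through the receptors C3aR and C5aR1 on myeloid cells, and the plasma protease inhibitor C1-INH, product of Serping1, blocks C1r and C1s. In the spinal cord C1q is made mainly by microglia, and C3, C4 and C1-INH also by other glia and by vessel-associated cells.

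Library totals ran from 11821145 to 17675948 counts. Levels below are CPM, read counts scaled to a common library size with TMM normalization, and the order of the genes by level is given as CPM per kilobase of exon. Sums over marker lists, and ratios to them, are in CPM and serve to compare libraries, since their size depends on gene lengths and on the number of genes summed. Motor neuron markers were present in each library, with Chat between 19.6 and 34.6 CPM, and so were the 14 microglial markers, whose summed level was 629 to 1882 CPM in sham, 1294 to 1382 in untrained and 856 to 1941 in SBES libraries. None of the 14 was at 0 in any library. The 6 motor neuron markers summed to 130.5 to 423 CPM over the 9 libraries. Oligodendrocyte markers, 10 in all, were also present, with sums of 38667 to 109650 CPM. The summed level of 15 markers of blood-derived and border leukocytes was 2517 CPM in sham 1 and 34.1 to 815 CPM in the other libraries, and 7 of these markers, among them Ccr2 and Ms4a1, were at 0 in at least 1 library. Most of the sum in sham 1 came from Lyz2 (1074 CPM), S100a8 (1009 CPM) and S100a9 (411 CPM). The next highest of the 15 there was Ms4a7, at 9.37 CPM. The nuclear RNA Malat1 stood at 20834, 15296 and 6288 CPM in the libraries numbered 1 of sham, untrained and SBES, against 466 to 1489 CPM in the other 6. The libraries numbered 1 stood apart in this way, and results are given with and without them. In such material fewer cells of a type and less RNA per cell cannot be told apart.

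C1qa, C1qc and C1qb lie next to each other on the minus strand of mouse chromosome 4, in a stretch of 18675 bases (mm10, chr4:136880129-136898803), and encode the A, C and B chains of the C1q molecule. Upstream sequence is shown for C1qb and C1qc, as neighbours whose levels were closely correlated, for C3, as the component on which the routes converge, and for C5ar1, as the receptor with the larger difference between SBES and sham libraries. Each run is the 250 bases before the RefSeq start of the gene on GRCm38.p6 (the assembly of mm10), written 5′ to 3′ on the gene's strand; capitals mark matches on either strand to the motifs named after the sequences. For C1qc and C5ar1 the RefSeq start lies inside the span that the deposited table gives the gene, so part of the window falls within that span. For C1qb the start lies outside the span, which ends at 136886187. The bases after that C1qb start were found in no GENCODE M21 transcript of the gene. For C1qc, C3 and C5ar1, in contrast, the bases after the start were found in a GENCODE M21 transcript of the gene. The windows are chr4:136886201-136886450 (C1qb, minus strand), chr4:136892915-136893164 (C1qc, minus), chr17:57228137-57228386 (C3, minus) and chr7:16259339-16259588 (C5ar1, minus).
C1qb: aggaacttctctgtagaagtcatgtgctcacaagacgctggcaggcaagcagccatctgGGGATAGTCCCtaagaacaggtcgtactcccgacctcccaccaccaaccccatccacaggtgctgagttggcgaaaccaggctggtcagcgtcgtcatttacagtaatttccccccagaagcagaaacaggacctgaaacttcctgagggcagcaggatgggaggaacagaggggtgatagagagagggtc
C1qc: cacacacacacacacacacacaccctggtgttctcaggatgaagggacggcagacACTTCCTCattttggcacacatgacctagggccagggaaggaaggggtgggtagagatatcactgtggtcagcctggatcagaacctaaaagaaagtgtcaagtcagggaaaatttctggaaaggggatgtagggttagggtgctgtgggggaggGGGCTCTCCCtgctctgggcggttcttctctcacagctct
C3: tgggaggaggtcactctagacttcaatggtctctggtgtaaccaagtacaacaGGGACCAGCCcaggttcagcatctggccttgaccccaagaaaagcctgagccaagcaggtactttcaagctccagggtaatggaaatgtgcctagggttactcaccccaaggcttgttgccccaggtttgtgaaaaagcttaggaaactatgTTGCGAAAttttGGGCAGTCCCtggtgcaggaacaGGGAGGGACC
C5ar1: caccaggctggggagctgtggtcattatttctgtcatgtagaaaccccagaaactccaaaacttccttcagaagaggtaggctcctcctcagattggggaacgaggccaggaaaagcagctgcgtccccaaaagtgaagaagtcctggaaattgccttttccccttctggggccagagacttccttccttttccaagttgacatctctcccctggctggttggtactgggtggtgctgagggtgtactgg
The RefSeq promoter table held 6 of the 9 genes, these and C1ra and C3ar1. The motifs searched, by their letters with N for any base, were GAGGAAGT (the ETS core with a flank favoured by PU.1, a myeloid factor), GGGA, any 4 bases and CC (NF-kappaB), GAAA, any 2 bases and GAAA (interferon response element), TTCNNNGAA (STAT), TTGCNNAA (C/EBP) and TGANTCA (AP-1). The PU.1 motif matched in 1 of the 6 windows, that of C1qc, as ACTTCCTC on the opposite strand, 195 to 188 bases before the start, and in 2.44% of the 32851 windows of the whole table. The NF-kappaB motif matched in 3 of the 6, C1qb, C1qc and C3, against 17.6% of all windows. In C1qb its 2 matches, one on each strand, overlap, and in C3 there were 3, GGGACCAGCC, GGGCAGTCCC and GGGAGGGACC. C3 also held the C/EBP match TTGCGAAA (9.56% of all windows), and C3ar1 the AP-1 match TGACTCA (6.75%). The interferon and STAT motifs, present in 2.98% and 7.02% of all windows, were in none of the 6, and the windows of C5ar1 and C1ra held no match to any of the 6 motifs. These matches describe the letters of the windows and nothing about binding.

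The C1q chains were the most abundant complement transcripts of the set. By mean CPM per kilobase over the 9 libraries the order was C1qb (400.4), C1qa (274), C1qc (188), C4b (6.84), Serping1 (4.49), C3 (4.32), C5ar1 (2.01), C3ar1 (1.94) and C1ra (0.313). C4b, Serping1 and C3, and likewise C5ar1 and C3ar1, were closer to each other in this order than the spread of either over the libraries. By deposited FPKM, C1qb ranked between 53rd and 427th of all genes in a library, and C1qa and C1qc between 84th and 855th.

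The C1q chains were highest in SBES 2 and SBES 3. Group means were 184 ± 122, 228 ± 52.3 and 444 ± 270.0 CPM for C1qa, 272 ± 143, 387 ± 32.4 and 648 ± 421 CPM for C1qb, and 235 ± 132, 341 ± 68.8 and 515 ± 321 CPM for C1qc in sham, untrained and SBES libraries (SD, n = 3). C1qa stood at 325, 112 and 116 CPM in sham 1, 2 and 3, at 169, 247 and 267 CPM in untrained 1, 2 and 3, and at 174, 443 and 714 CPM in SBES 1, 2 and 3. SBES 2 and SBES 3 were above every other library, and SBES 1 and sham 1 broke the separation of the groups. C1qb was at 437, 203 and 177 CPM in sham, 357, 381 and 422 CPM in untrained, and 270.1, 573 and 1101 CPM in SBES. C1qc was at 386, 175 and 143 CPM in sham, 272, 341 and 409.9 CPM in untrained, and 178, 549.6 and 818 CPM in SBES. All 3 chains thus showed one order of libraries at the top, SBES 3 and then SBES 2, and their group ranges overlapped in every comparison. Together they took 0.0452% to 0.0834% of all counts in sham, 0.0839% to 0.121% in untrained and 0.0473% to 0.268% in SBES libraries.

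The sum of the 3 chain genes varied from 436 to 2633 CPM, and their proportions varied less. Per kilobase, C1qb made up 42.5% to 52.0% of the summed chains, C1qa 25.7% to 34.4% and C1qc 18.1% to 24.8%. Over the 9 libraries the chains correlated with each other at a Pearson's r of log2(CPM + 1) of 0.967 to 0.975, against 0.331 to 0.934 for the other 33 pairs of the 9 genes. These are descriptions across libraries that share depth, cell makeup and group, and they carry no test.

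**Figure D1:**
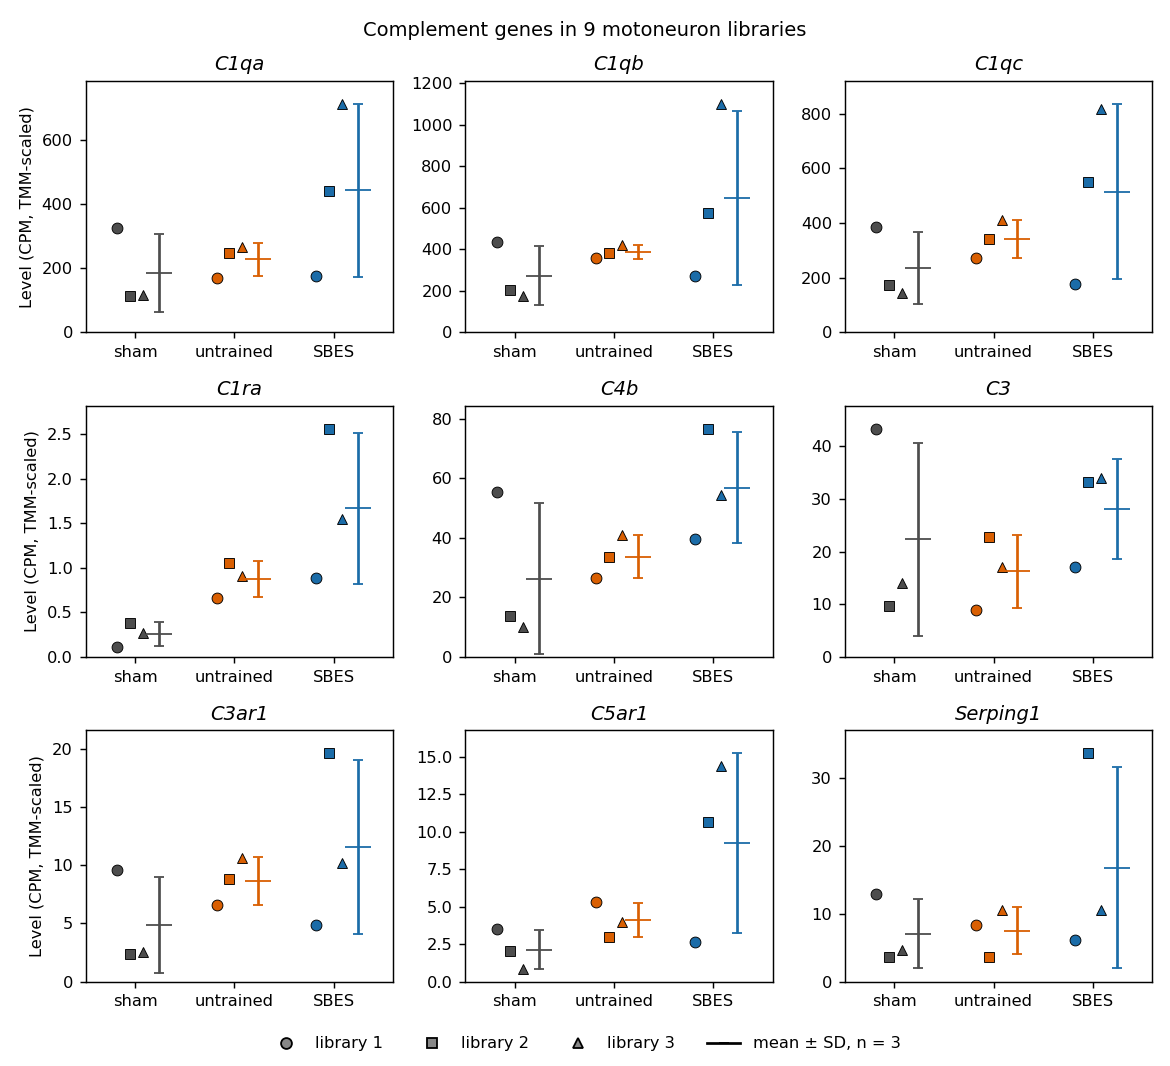
Level of each complement gene in CPM (vertical axis, linear) in sham, untrained and SBES libraries; symbols mark library 1, 2 or 3 and bars the mean ± SD of 3 libraries. SBES 1 was the lowest SBES library for 9 of 9 genes, and sham 1 the highest sham library for 8 of 9, all but C1ra.

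C1ra (chr6:124512405-124523443, plus strand), the gene of the C1r protease that C1q activates, was the member with the least signal, with 1, 6 and 5 counts in sham, 10, 19 and 15 in untrained, and 8, 37 and 25 in SBES libraries. In CPM these were 0.109, 0.381 and 0.273 in sham, 0.661, 1.06 and 0.905 in untrained, and 0.891, 2.57 and 1.55 in SBES. It was the single member whose sham libraries lay below all untrained and all SBES libraries, and sham 1 was here the lowest library and not the highest sham one. Its near-identical neighbour C1rb had 0 counts in all 9 libraries, and reads shared by both could not be assigned.

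C4b (chr17:34728380-34743882, minus strand) encodes complement C4, the first substrate of activated C1s. Its level was 55.3, 13.6 and 9.98 CPM in sham, 26.4, 33.6 and 41.0 CPM in untrained, and 39.6, 76.6 and 54.3 CPM in SBES. Apart from sham 1, the 6 injured libraries were all above the sham ones. The paralog C4a, close in sequence, had 0 to 5 counts per library, and reads that fit both genes could not be assigned, so the C4b values are uncertain to that extent.

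C3 (chr17:57203970-57228136, minus strand), the component cut by all activation routes, was at 43.4, 9.71 and 13.96 CPM in sham, 8.86, 22.8 and 17.1 CPM in untrained, and 17.2, 33.1 and 33.9 CPM in SBES. Sham 1 was the highest of the 9 libraries and untrained 1 the lowest, so the sham range covered the other groups but for untrained 1. By deposited FPKM, without TMM, SBES 2 and SBES 3 (7.1 and 6.7) were above sham 1 (6.12).

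C3ar1 (chr6:122847138-122856161, minus strand), the receptor for the C3a fragment, was at 9.59, 2.41 and 2.56 CPM in sham, 6.54, 8.79 and 10.6 CPM in untrained, and 4.90, 19.6 and 10.2 CPM in SBES. C5ar1 (chr7:16246743-16259540, minus strand), the receptor for C5a, was at 3.49, 2.03 and 0.872 CPM in sham, 5.29, 3.01 and 3.98 CPM in untrained, and 2.67, 10.7 and 14.4 CPM in SBES. The highest C3ar1 library was SBES 2 and the highest C5ar1 library SBES 3. C5ar1 in SBES 1 was below sham 1, while SBES 2 and 3 were at least 10.7 CPM against at most 5.29 CPM in the 6 sham and untrained libraries.

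Serping1 (chr2:84765387-84775444, minus strand), the gene of the C1 inhibitor, was at 12.9, 3.68 and 4.63 CPM in sham, 8.26, 3.67 and 10.6 CPM in untrained, and 6.13, 33.6 and 10.5 CPM in SBES. SBES 2 was the highest library, and the other 8 lay between 3.67 and 12.9 CPM.

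Untrained libraries were first compared with sham ones, for the change that followed injury. With all 9 libraries in the edgeR fit, 0 of the 9 genes passed (adjusted p = 0.99967 for each), as 0% of the 15893 genes tested did. All 9 had passed the filter on low counts. The log2 fold change was positive for 8 of the 9, where 49.1% of all genes were positive, with a median of 0.51 against -0.01 for all genes. It ran from -0.45 (SE 0.51) for C3 to 1.67 (SE 0.59) for C1ra, with 0.31 (SE 0.49), 0.51 (SE 0.45) and 0.54 (SE 0.49) for C1qa, C1qb and C1qc. C1ra was the 1 member with an unadjusted p under 0.05 (0.0147), higher in untrained libraries, as 2.18% of all genes were, and the 1 whose groups did not overlap, as for 4.63% of genes in that direction.

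Sham 1 stood apart from the other sham libraries here. All 3 untrained libraries were above sham 2 and sham 3 for 7 of the 9 genes, the exceptions being C3 and Serping1. In TMM-scaled CPM sham 1 was above all untrained libraries for 5 of the 9, C1qa, C1qb, C4b, C3 and Serping1. That order depends on the scaling, as the TMM factor was 0.727 for sham 1 and 1.05 to 1.16 for untrained libraries. By deposited FPKM, without TMM, sham 1 stayed above all of them for C3 (6.12 against at most 5.13). It was below the highest untrained library for C1qa (227 against 284), C1qb (291 against 427), C4b (7.06 against 7.94) and Serping1 (4.01 against 5.01). Without sham 1 the log2 fold changes were positive for 9 of 9, at a median of 1.14, C3 turned from -0.45 to 0.50, and 0 passed. Without sham 2 or sham 3 the median was 0.34 and 0.28, and Serping1 turned to -0.20 and -0.12. Without sham 3 C4b was at -0.02, and without untrained 3 Serping1 was at -0.22. Without the 3 libraries numbered 1, 2 of the 9 passed in edgeR, C4b at 1.69 (SE 0.25, adjusted p = 0.0172) and C3ar1 at 1.99 (SE 0.34, adjusted p = 0.0361), with 0.29% of 16210 genes called in that fit, 9 of 9 positive and a median of 1.27. The microglial sum was 1882 CPM in sham 1 against 719.8 and 629 CPM in sham 2 and 3. The leukocyte sum, in sham 1 mostly Lyz2, S100a8 and S100a9, was 2517 against 90.2 and 34.1 CPM. The part of either sum in these values was not tested.

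SBES libraries were next compared with untrained ones, for the change that came with stimulation of injured animals. Here too 0 of the 9 genes passed in edgeR (adjusted p = 0.934 to 0.998), as 0% of all genes did, and 0 had an unadjusted p under 0.05, where 3.7% of all genes had one in the higher direction. Groups that did not overlap, higher in SBES, were seen for 0 of the 9 and 5.66% of all genes. All 9 log2 fold changes were positive, where 51.7% of all genes were, at a median of 0.79 against 0.02 for all genes. The values ran from 0.43 (SE 0.55) for C3ar1 to 1.19 (SE 0.56) for C5ar1, with 0.96 (SE 0.50), 0.75 (SE 0.45) and 0.59 (SE 0.48) for the C1q chains in the order A, B, C, 0.76 (SE 0.52) for C4b, 0.79 (SE 0.51) for C3, 0.94 (SE 0.51) for C1ra and 1.17 (SE 0.63) for Serping1. SBES 2 and SBES 3 were both above all untrained libraries for 7 of the 9 genes, all but C3ar1 and Serping1. In TMM-scaled CPM SBES 1 was below all 3 untrained libraries for C1qb, C1qc, C3ar1 and C5ar1 and within their range for the other 5. The TMM factor of SBES 1 was 0.760, and by deposited FPKM its C1qa (127) was also below all untrained libraries (170 at least). Without SBES 1 the median was 1.12 and 0 passed. Without SBES 3 the values of C1qb and C1qc were 0.12 and 0.09, and without SBES 2 those of C3ar1 and Serping1 were -0.18 and 0.16. Without the 3 libraries numbered 1 the median was 1.03 and 0 passed, where 0.0802% of genes did.

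SBES libraries were then set against sham ones, a comparison that shares its libraries with the other comparisons. With all 9 libraries, 0 of the 9 genes passed in edgeR, against 0.346% of all genes (55 of 15893). All 9 log2 fold changes were positive, at a median of 1.27 against -0.0018 for all genes, where 49.8% of all genes were positive. They were 2.61 for C1ra (SE 0.58, adjusted p = 0.0997), 2.18 for C5ar1 (SE 0.59, adjusted p = 0.182), 1.27, 1.25 and 1.14 for C1qa, C1qb and C1qc (SE 0.50, 0.46 and 0.49, adjusted p = 0.439, 0.379 and 0.504), 1.30 for C3ar1 (SE 0.57), 1.28 for Serping1 (SE 0.63), 1.13 for C4b (SE 0.52) and 0.34 for C3 (SE 0.51). An unadjusted p under 0.05 was seen for 6 of the 9 (all but C3, C4b and Serping1), all higher, against 5.7% of all genes in that direction. C1ra alone had groups that did not overlap, as 7.1% of genes had in that direction. The adjusted p of the members ran from 0.0997 to 0.904. With the replicate number as a block over all 9 libraries, 1 of the 9 passed in edgeR, C1ra at 2.63 (adjusted p = 0.0458), with 0.831% of all genes called (132 of 15893). Same-numbered sham and SBES libraries deviated together in all 3 pairs, but sham 2 did so to the same extent with SBES 3. The number is thus not shown to be a pairing.

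DESeq2 in place of edgeR called 2 of the 9 genes in SBES against sham, C1ra (2.66, adjusted p = 0.0139) and C5ar1 (2.18, adjusted p = 0.0117), with 1.89% of all genes called. With no filter on low counts edgeR called 8 of the 9, all but C3, with 1.63% of 31752 genes called. Without sham 1, C4b passed at 2.29 (adjusted p = 0.0421), with 0.176% of all genes called, and without SBES 1, C5ar1 passed at 2.64 (adjusted p = 0.0345), with 0.522% called. Without sham 2 C3 was at -0.02 and 0 passed. Leaving out SBES 2 or SBES 3 lowered other members, again with 0 passing: without SBES 2 Serping1 was at 0.27 and C3ar1 at 0.69, and without SBES 3 C1qa, C1qb and C1qc were at 0.75, 0.63 and 0.64. Without sham 3 C4b was at 0.73 and C3 at 0.10. Without the 3 libraries numbered 1 all 9 passed in edgeR, with 3.58% of 16210 genes called. The log2 fold changes were then 2.35, 2.15 and 2.11 for C1qa, C1qb and C1qc (adjusted p = 0.000581, 0.00187 and 0.000978), 2.48 for C4b (adjusted p = 0.000518), 1.51 for C3 (0.00597), 2.58 for C3ar1 (0.00187), 3.13 for C5ar1 (0.00164), 2.64 for C1ra (0.0289) and 2.40 for Serping1 (0.0296). That fit rests on 2 libraries per group, SBES at 15 and 20 Hz and sham 2 and 3, and libraries were left out with these results known.

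**Figure D2:**
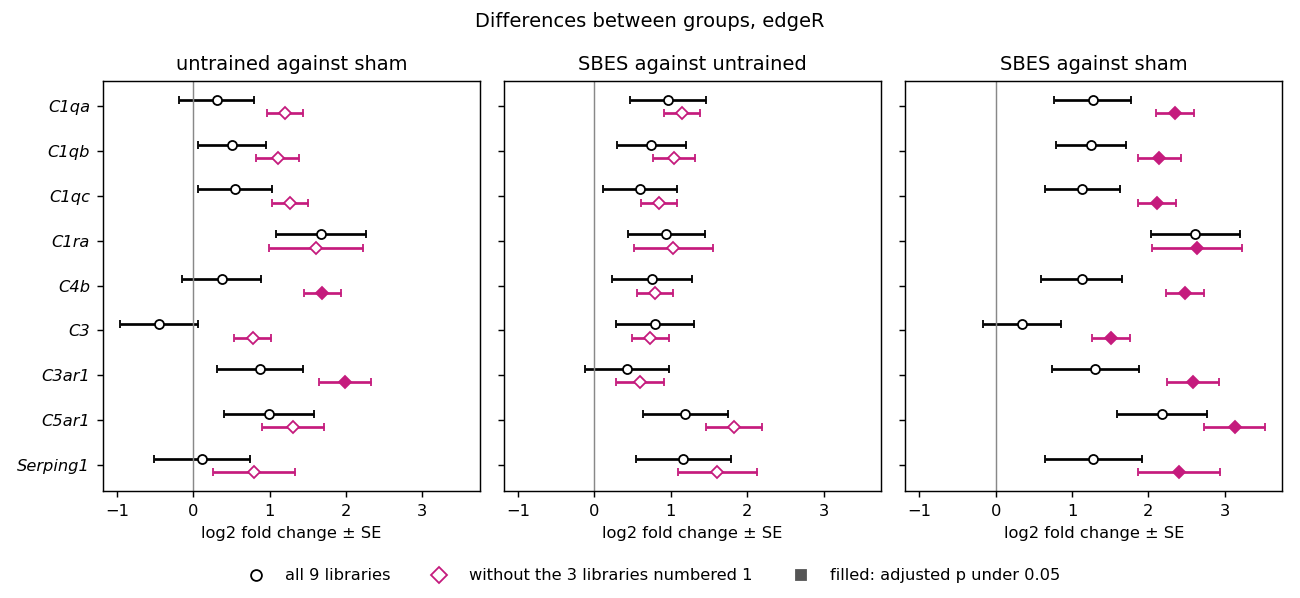
Log2 fold change ± SE (horizontal axis) of each complement gene in 3 comparisons from edgeR, with all 9 libraries (circles) and without the 3 libraries numbered 1 (diamonds); filled symbols mark an adjusted p under 0.05. No circle is filled, and 2 diamonds are filled for untrained over sham, 0 for SBES over untrained and 9 for SBES over sham.

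Because C1q is made by microglia, its level was set beside the 14 microglial markers. The ratio of the summed C1q chains to the summed markers was 0.610, 0.681 and 0.693 in sham 1, 2 and 3, 0.578, 0.749 and 0.808 in untrained, and 0.727, 1.07 and 1.36 in SBES. Sham 1, which had the second-highest marker sum of the 9 libraries in TMM-scaled CPM, thus had a ratio below the other sham libraries. SBES 2 and 3 had the highest ratios. SBES 1 lay within the range of the untrained libraries. The markers themselves had a median log2 fold change of 0.36 for untrained over sham, -0.02 for SBES over untrained and 0.15 for SBES over sham, with 0 of 14 called in each. The part of microglial content in the C1q levels was not tested beyond these ratios.

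Against the same microglial sum the other genes spread differently. Serping1 was 2.30% of it in SBES 2 and 0.284% to 0.776% in the other 8 libraries, and C3ar1 was 1.35% in SBES 2 and 0.335% to 0.780% elsewhere. C5ar1 was 0.733% and 0.742% in SBES 2 and 3 and 0.139% to 0.383% in the other 7. C4b and C1ra differed from these in SBES 1. C4b was 4.62%, 5.26% and 2.80% of the sum in SBES 1, 2 and 3, against 1.59% to 2.94% in sham and 1.91% to 3.01% in untrained libraries. C1ra was 0.104%, 0.176% and 0.0797% in SBES 1, 2 and 3, against 0.00579% to 0.0529% in sham and 0.0478% to 0.0817% in untrained libraries. By this sum SBES 1 was thus above SBES 3 and above all sham and untrained libraries for both genes. Against the summed astrocyte markers C4b was 0.315%, 0.722% and 0.442% in SBES 1, 2 and 3. It was 0.0957% to 0.397% in sham and 0.230% to 0.344% in untrained libraries. C1ra was 0.0071%, 0.0242% and 0.0126% in SBES, against 0.00078% to 0.0032% in sham and 0.0058% to 0.0108% in untrained libraries. There SBES 1 was the lowest SBES library and within the untrained range for both genes. Relative to the microglial sum C3 overlapped between all groups, at 1.35% to 2.30% in sham, 0.641% to 1.76% in untrained and 1.75% to 2.27% in SBES libraries. Astrocyte markers summed to 9785 to 14552 CPM over the 9 libraries, and fibroblast markers to 19.6 to 34.4 CPM.

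**Figure D3:**
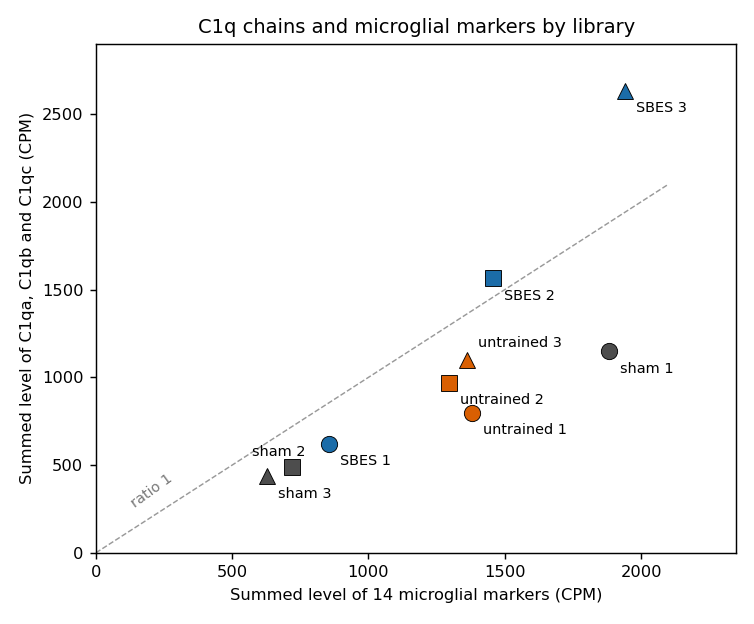
Summed level of the 3 C1q chain genes (vertical axis, CPM) against the summed level of 14 microglial markers (horizontal axis, CPM), 1 point per library; the dashed line marks a ratio of 1 as a guide for comparing libraries. SBES 2 and SBES 3 lie above the line (ratios 1.07 and 1.36) and the other 7 libraries below it.

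The genes whose pattern over the 9 libraries was most like each member were sought among 4824 genes with a mean FPKM of at least 5, by Pearson's r of log2(CPM + 1), as a description. For C1qa they were Laptm5 (0.986), Ifi30 (0.961) and S100a11 (0.959), for C1qb Tmem176a (0.972), Laptm5 (0.961) and Capg (0.952), and for C1qc Capg (0.979), Tmem176a (0.975) and Spi1 (0.973), the gene of PU.1. C3ar1 was closest to Bcl2a1b (0.939), Cd48 (0.934) and Lgals3 (0.929), and C4b to Vim (0.955), Lgals3 (0.923) and Grn (0.902). C5ar1 was closest to Ctxn1 (0.985), Crip2 (0.940) and Junb (0.936). The nearest genes to C1ra were Ramp2 (0.938), Selenbp1 (0.935) and Sult1a1 (0.928), to C3 Sertad1 (0.902), Vim (0.899) and Rps18 (0.883), and to Serping1 Naaa (0.956), Cfap126 (0.937) and Dcxr (0.922).

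The rest of the pathway was measured with a list of 50 further complement genes, of which 26 passed the filter on low counts and 24 did not. The 24 had at most 19 counts in any library. They included most of the terminal pathway (Hc, the gene of C5, and C6, C7, C8a, C8b and C9), Cfb and Cfd of the alternative pathway, and the receptors Cr2 and Vsig4. Of the 24, 6 had 0 counts in all 9 libraries, C1rb, Mbl1, C7, C9, Cpn2 and Cd55b, which allows a level of up to 0.0231 CPM before scaling (3 counts in 129813787). Of the 26 tested, 0 passed in edgeR in any comparison, and their median log2 fold changes were 0.03 for untrained over sham, 0.06 for SBES over untrained and 0.06 for SBES over sham, with 16, 14 and 14 of 26 positive.

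Itgb2, the beta chain of complement receptor 3, was at 17.9, 4.38 and 3.05 CPM in sham, 12.4, 12.02 and 16.5 CPM in untrained, and 6.57, 11.997 and 26.8 CPM in SBES. As with most of the members, sham 1 was the highest sham library and SBES 1 the lowest SBES one, and the groups overlapped. Its log2 fold change in SBES against sham was 0.89 (SE 0.61, adjusted p = 0.735 in edgeR) with all 9 libraries, and it passed without the 3 libraries numbered 1 (2.40, adjusted p = 0.00524). With no filter on low counts Colec10, a collectin, passed in that comparison (adjusted p = 0.0108), with 19 counts in SBES 1 and 0 to 6 in the other libraries.

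Among membrane regulators, 8 of 10 were tested and 0 passed. Cd59a and Cd59b, which block the membrane attack complex, were at 0.38 (SE 0.23) and -0.68 (SE 0.42) in untrained against sham, and Cd59b and Cd55, which speeds decay of the C3-cutting enzymes, at -0.94 (SE 0.42) and -0.60 (SE 0.35) in SBES against sham. Their adjusted p ran from 0.523 to 0.99967. In SBES against untrained the lowest unadjusted p of the list were those of Susd4 (0.35, SE 0.20), Clu (0.52, SE 0.33), the gene of the terminal pathway inhibitor clusterin, and Vtn (-0.40, SE 0.27), that of vitronectin (adjusted p = 0.974 to 0.993). Clu was at 2486 ± 1116 CPM in sham, 2071 ± 536 in untrained and 2964 ± 307 in SBES libraries (SD, n = 3).

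**Figure D4:**
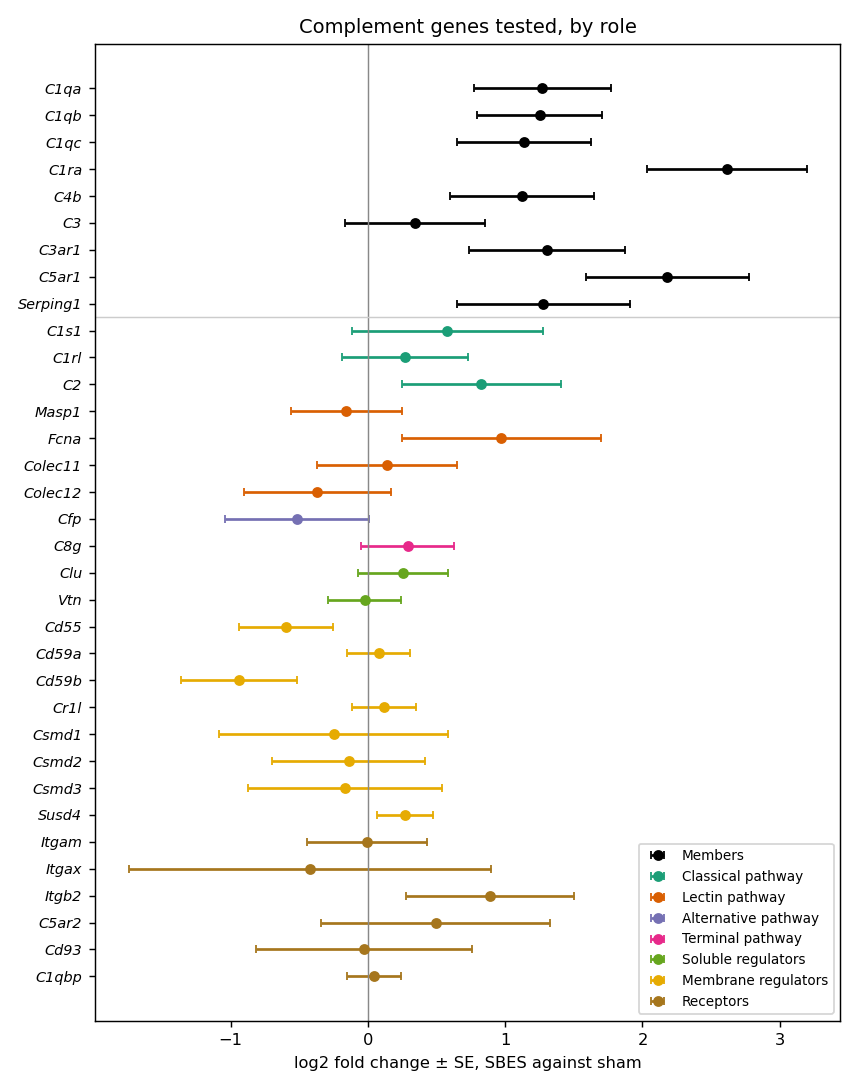
Log2 fold change ± SE (horizontal axis) in SBES against sham, all 9 libraries, for the 9 genes described (black) and 25 of the 26 tested genes of the further list (coloured by role). All 9 black points are above 0, and the further genes shown lie between -0.94 and 0.97.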

How the data were processed

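Per the labels' protocols, the authors aligned paired-end reads with Hisat2 2.0.1 and counted genes with HTSeq 0.6.1; the submitters' processing notes name mm10 as build. Annotation release and strand setting were not given in the sources used here. Deposited values are whole-number counts and, per the file headers, FPKM; recomputing FPKM from counts and exonic lengths matched 100% of values within 0.006. Names matched 5 libraries to columns; 4 were matched by elimination.

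Counts were tested with edgeR 4.0.16 in R 4.3.3 (filterByExpr, 15893 genes; TMM; quasi-likelihood, 1 fit of 9 libraries with group coefficients; Benjamini-Hochberg over all genes, threshold 0.05). SE is the fold change over the root of its F statistic. The script was tested on simulated data. Deviations from group means of same-numbered libraries correlated at 0.382, 0.239 and 0.219 between sham and SBES, all over 0.1, and were taken as paired there; they were not taken as paired between sham and untrained (0.490, 0.0287, 0.332) or untrained and SBES (0.285, -0.171, 0.348). This pairing comes from the data, as no label gives one. The replicate block was fitted over all 9 libraries, so the untrained ones were blocked as well. Differently numbered libraries also correlated over 0.1, sham 2 with SBES 3 at 0.2391 and sham 3 with SBES 2 at 0.1012. The other differently numbered sham and SBES pairs lay between -0.3413 and -0.228. The number is thus not shown to be a pairing. Alternatives were DESeq2 1.42.0, RLE scaling, no filter, a replicate block, 2 groups per fit, limma 3.58.1 on log2(FPKM + 1) and log2(FPKM + 0.1), and leaving out libraries. Members, lists and alternatives were chosen with earlier results of these data known. All members are named; of the further list, called genes and the 3 of smallest p per comparison are named; likeness names 3 genes per member. The values of 1 gene of the further list, counted in its totals, are not reported here. Positions are those of the table and were identical in GENCODE M21 for 9 of 9 genes. Counts carry counting error and PCR copies.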

Additional observations from a re-analysis of the deposited data

How the results depend on the processing

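With all 9 libraries none of the 9 genes passed edgeR in any comparison. RLE scaling, fits of only the 2 groups compared and limma on FPKM also called 0 of those they tested (C1ra was below the FPKM limit of limma, and below the filter in the fit of SBES and sham alone). The limma fits moved the median of all genes by up to 0.22 on the log2 scale: 0.14 and 0.18 in untrained against sham and -0.17 and -0.22 in SBES against untrained, with pseudocounts 1 and 0.1. FPKM carries no TMM scaling, and the TMM factors were 0.727 for sham 1 and 0.760 for SBES 1, against 1.02 to 1.16 for the others. In untrained against sham the called members were 2 without the 3 libraries numbered 1 and 0 with any single library left out; over all genes the calls were 0 with all libraries, 19 with DESeq2, 134 with no filter, 4 with a replicate block, 1 with limma at a pseudocount of 0.1 and 47 without the libraries numbered 1. In SBES against untrained they were 0 members throughout, and over all genes 33 with DESeq2, 186 with no filter, 1 with limma at a pseudocount of 1, 13 without the libraries numbered 1 and 0 to 1 without single libraries. In SBES against sham the members called were 2 with DESeq2, 8 with no filter, 1 (C1ra, 2.63, adjusted p = 0.0458) with a replicate block, 9 without the libraries numbered 1 and 0 to 1 without single libraries; over all genes 55 became 300, 517, 132, 581 and 0 to 86 in the same order, and 19 and 17 with limma at pseudocounts 1 and 0.1. Without sham 3 the count was 0, without SBES 3 it was 4 and without sham 2 it was 6. Of the further list 2 genes were called with no filter and 2 without the libraries numbered 1. C3 in untrained against sham was 0.78 without the libraries numbered 1, and ranged from -0.81 to 0.50 without single libraries. The same range was -0.022 to 1.55 for C4b and -0.22 to 0.88 for Serping1, -0.18 to 0.78 for C3ar1 in SBES against untrained, and -0.015 to 1.27 for C3 in SBES against sham. The cause of these changes was not tested. The replicate block changed no other call of a member. Over all pairs of groups 7 of 9 same-numbered pairs correlated over 0.1, and 4 of 9 libraries correlated best with their own number. C1ra, with 1 to 37 counts per library, is limited by depth.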

Other observations

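The 14 microglial markers, whose sum was used above, did not all follow C1q in the libraries where it was highest. Genes of phagocytosis and lysosomes were high there: Cd68 was at 115 and 135 CPM in SBES 2 and 3, against 55.2 to 82.9 CPM in untrained and 11.1 to 106 CPM in sham libraries, and Trem2, a lipid receptor, at 100.3 and 174 CPM, against 57.0 to 93.6 CPM and 32.2 to 109 CPM. The ADP receptor gene P2ry12 was at 6.93 and 9.34 CPM in SBES 2 and 3, below the 17.0 to 22.2 CPM of the untrained and the 12.8 to 21.2 CPM of the sham libraries. None of these passed edgeR, and they were picked after their values were seen.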
